A study of Mus musculus with 2 samples.

Results

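The data concern 6 genes that pattern the presomitic mesoderm, the unsegmented tissue from which somites bud off: the T-box factors Tbx6 and T (brachyury), the basic helix-loop-helix (bHLH) factors Msgn1, Mesp1 and Mesp2, and the repressor Ripply2. They occupy 5 loci, since Mesp1 and Mesp2 lie side by side. Peaks were assigned to a locus where the peak midpoint lay within 100 kb of the gene position on mm9, and by this rule 2 of the 4087 listed peaks belonged to them, 1 at Tbx6 and 1 at Ripply2. The other 4 genes, T, Msgn1, Mesp1 and Mesp2, had no listed peak in that window.

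The peaks come from chromatin immunoprecipitation followed by sequencing (ChIP-seq), which recovers DNA associated with the protein that an antibody recognises. Here that protein carried a tag. A2lox FMsgn1 mouse embryonic stem cells (strain label C57BL/6) carry FLAG-tagged Msgn1 under doxycycline control. They were differentiated as embryoid bodies, cell aggregates that form early germ layer derivatives, for 2 days, given 1 ug/ml doxycycline and collected 36 h later. One library was made with the anti-Flag M2 antibody and the other from input DNA with no antibody, and both came from induced cells. Each group is a single library, which leaves every value without a replicate error and allows no test. Both libraries come from this 1 line, and the protein mapped is the induced, tagged form. Uninduced cells and expression were not analysed here, so the cell type formed was not checked against markers.

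Msgn1 is a bHLH activator of the presomitic mesoderm, and bHLH factors contact E-boxes, the motif CANNTG. Tbx6 acts in the same tissue and is needed for paraxial mesoderm rather than neural tissue to form. T marks the primitive streak and tail bud progenitors. Mesp1 marks early mesoderm including the heart's precursors. Mesp2 sets the position of the next somite border, and Ripply2 shuts the Mesp2 programme down at that border. The question was where induced Msgn1 occupied chromatin at the genes for these factors and at its own gene.

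Peak sequences on mm9 were not used here. Promoters are shown only for the E-boxes near each start site, and they do not stand for the sequence under any peak. The 250 bases before the start sites of 3 genes are given from RefSeq (GRCm38.p6, a different build from the peaks): those of Tbx6 and Ripply2, whose loci held a peak, and of Msgn1, the gene of the mapped factor itself. Sequences are 5′ to 3′ on the strand of the gene and capitals mark E-boxes. Tbx6 lies at chr7:126781233-126781482 on the plus strand, Ripply2 at chr9:87015287-87015536 on the plus strand and Msgn1 at chr12:11208949-11209198 on the minus strand.
Tbx6 upstream: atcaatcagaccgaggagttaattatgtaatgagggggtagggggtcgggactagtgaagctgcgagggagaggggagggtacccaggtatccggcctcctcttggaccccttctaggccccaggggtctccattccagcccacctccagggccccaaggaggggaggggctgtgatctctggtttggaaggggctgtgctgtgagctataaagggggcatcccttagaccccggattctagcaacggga
Ripply2 upstream: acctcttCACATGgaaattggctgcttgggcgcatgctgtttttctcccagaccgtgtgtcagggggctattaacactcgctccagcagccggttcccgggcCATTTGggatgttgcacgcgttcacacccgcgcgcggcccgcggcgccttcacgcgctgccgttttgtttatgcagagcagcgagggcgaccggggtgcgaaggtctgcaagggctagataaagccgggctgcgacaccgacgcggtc
Msgn1 upstream: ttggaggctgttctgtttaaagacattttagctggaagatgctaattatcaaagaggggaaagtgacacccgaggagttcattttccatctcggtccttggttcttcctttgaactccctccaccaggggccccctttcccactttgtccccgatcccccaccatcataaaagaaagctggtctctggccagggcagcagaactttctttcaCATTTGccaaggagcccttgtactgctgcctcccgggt
The Tbx6 stretch has no capitals because it holds no E-box. That of Ripply2 holds 2, CACATG and CATTTG, and that of Msgn1 holds 1, CATTTG.

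The peak at Tbx6 was among the highest of the whole list. It lay at chr7:133928330-133929489 (mm9), was 1160 bp wide and had a score of 477.96 in the authors' units. The score ranked 29th of 4087, so that 99.29% of the list scored lower, and it was 6.56 times the median score of the list, 72.8. On chromosome 7 it ranked second of 235 peaks. Its width ranked 67th, with 98.36% of the list narrower, where the median width was 678 bp.

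The Tbx6 peak sat at the far end of the gene from the promoter. Its midpoint was 3.91 kb above the lower edge of the gene position (chr7:133925000-133929000), and the gene reads toward higher coordinates, from the strand in GRCm38.p6. The peak began 0.671 kb before the stated end of the gene and ran 0.489 kb past it. Gene positions are known to about 1 kb, so whether the peak covers the last exon or the sequence just downstream cannot be told apart. The stated position is 4 kb long and the RefSeq gene 4.07 kb. The next protein-coding gene on that side in GRCm38.p6 is Ppp4c, a phosphatase subunit gene on the opposite strand, whose promoter is at its far end. With this gene order, the peak lay at or near the stretch where the 3′ ends of Tbx6 and Ppp4c face each other. On the other side Tbx6 follows Ypel3.

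The Tbx6 peak had no other listed peak within 200 kb, as had 36.21% of autosomal peaks. The previous peak was 564.6 kb away, at chr7:133363976-133364550 with a score of 142.88, and the next was 223.4 kb away, at chr7:134151939-134152628 with a score of 120.63. In the whole list 1323 of 4043 autosomal peaks were farther from their nearest neighbour than the Tbx6 peak. Within 500 kb of Tbx6 there were 4 peaks, itself included, against a mean of 1.69 for windows of that length. Among the 29 peaks that scored as high as the Tbx6 peak or higher, the median distance to the nearest other peak was 58.6 kb. Of these, 6 were at least 223.4 kb from their nearest neighbour, not counting the Tbx6 peak itself. In width the Tbx6 peak was in the upper part of these 29, whose widths ran from 610 to 2474 bp with a median of 988 bp. Of the 29, 7 were at least 1160 bp wide, Tbx6 included.

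The peak nearest Ripply2 was weak and distal. This peak, chr9:86886480-86887059, spanned 580 bp with a score of 58.23, close to the lowest listed score of 50. Its score ranked 3029th of 4087, with 25.89% of the list below it, and its width ranked 3015th. On chromosome 9 it ranked 161st of 217 peaks by score. The 293 listed peaks with scores of 57 to 60 had a median width of 611 bp.

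The Ripply2 peak was 22.2 kb below the gene position (chr9:86909000-86915000), which is the upstream side, since Ripply2 is on the plus strand in GRCm38.p6. Between Ripply2 and Snap91, the next protein-coding gene on that side, the GRCm38.p6 table lists the 3 other genes Gm39389, Gm36539 and Gm51687. The peak is thus not at the Ripply2 promoter, and its place relative to those genes was not determined. A stronger peak lay on the other side of the gene, 161.0 kb above it and outside the window, at chr9:87075651-87076352. Its width was 702 bp and its score of 151.77 ranked 547th. Cyb5r4 is the next protein-coding gene on that side. The peak below the Ripply2 peak was 752.7 kb away and scored 50.18.

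The 2 peaks differed widely in height. The Tbx6 score was 8.21 times the Ripply2 score and the Tbx6 peak was 2.0 times as wide. At a score of at least 100, which 28.6% of the list reached, the Tbx6 peak remained and no peak was left within 100 kb of Ripply2.

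**Figure D1:**
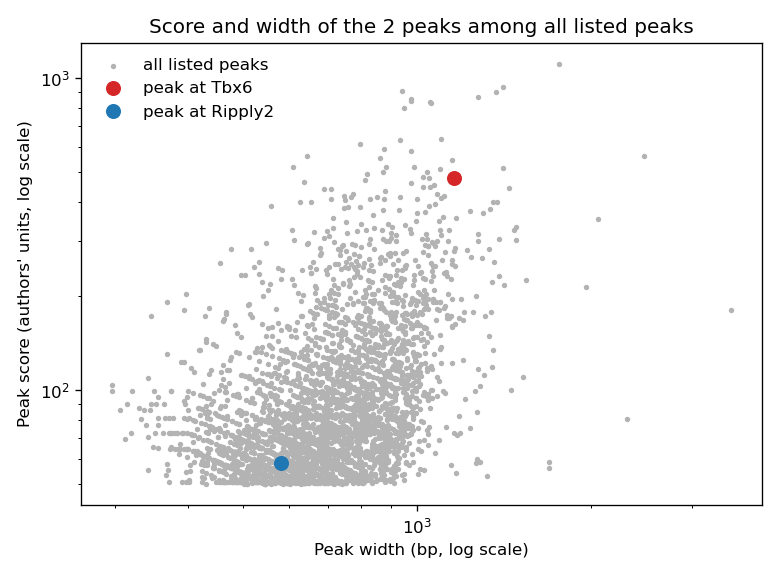
Each grey point is a listed peak, placed by its width (bp, log scale) and the authors' score (log scale). The coloured points are the peaks at Tbx6 (1160 bp, score 477.96) in the upper part of the cloud and at Ripply2 (580 bp, score 58.23) near its lower edge.

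Msgn1 itself had no listed peak near it. The peak nearest to the gene position (chr12:11213000-11215000), at chr12:12183427-12184814, was 969.1 kb above it, and the nearest below, at chr12:10140486-10141297, was 1072.1 kb away. Both of these flanking peaks were high: the lower one scored 471.44 and ranked 31st of the list, just behind the Tbx6 peak, and the upper one scored 232 and ranked 233rd, with a width of 1388 bp that ranked 19th. The protein-coding neighbours of Msgn1 in GRCm38.p6 are Kcns3 and Gen1, and no gene was assigned to these peaks.

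T had the most distant peaks of the 5 loci. From its position, chr17:8627000-8635000, the nearest was 1419.2 kb above, at chr17:10053875-10054616 with a score of 91.2, and the nearest below was 2666.9 kb away, at chr17:5959791-5960443 with a score of 70.22. Neither reached a score of 100. The neighbours of T in GRCm38.p6 are LOC115486424 and Pde10a.

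Mesp1 and Mesp2 lay between peaks that scored under 100. The nearest to their shared position, chr7:86940000-86965000, was 324.2 kb below, at chr7:86615372-86616323 with a score of 82.6, above the list's median of 72.8, and a second with a score of 50.97 lay 6.6 kb farther. On the other side the nearest, at chr7:87827160-87827777, was 862.5 kb away and scored 57.68, below that median. In GRCm38.p6 Wdr93 and Anpep are the protein-coding genes that flank the pair.

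**Figure D2:**
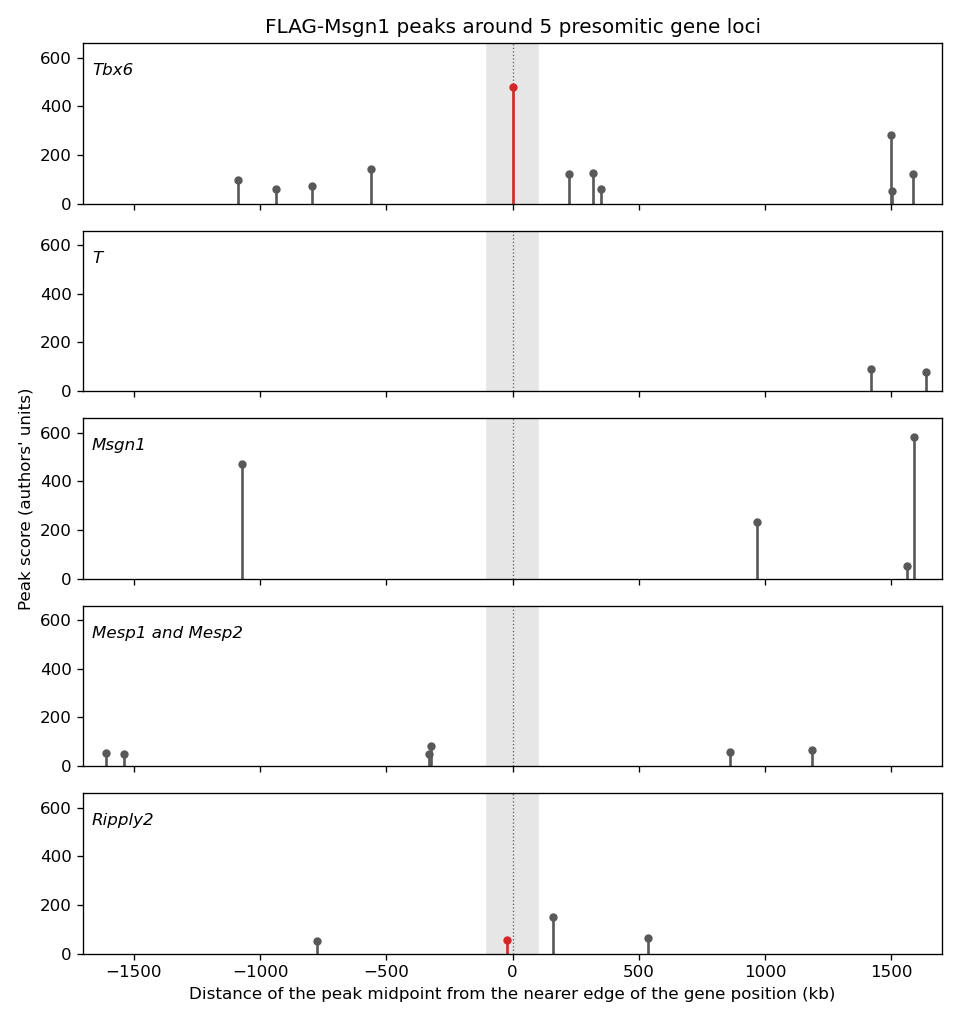
Each panel shows 1 locus, with the distance of peak midpoints from the nearer edge of the gene position (kb, 0 inside the gene) and the authors' score as the height of the line. The shaded band is the 100 kb on each side. Only Tbx6 (score 477.96, midpoint inside the stated gene position) and Ripply2 (score 58.23, at −22.2 kb) have a peak in it, in red.

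The genes without a peak lay in peak-free stretches of 1.21 to 4.09 Mb. These genes were set apart by having no peak within 100 kb on either side, so short stretches were excluded beforehand. Measured between the flanking midpoints, that around T was 4.09 Mb and ranked 60th of 4024 distances between neighbouring autosomal peaks, whose median was 275.2 kb. That around Msgn1 was 2.04 Mb (rank 241) and that around Mesp1 and Mesp2 was 1.21 Mb (rank 530). Ripply2 lay in a stretch of 189.2 kb, between the weak peak and the stronger one. Long stretches take up much of the genome, so these ranks overstate how unusual such places are: stretches at least as long as that of T held 13.83% of the autosomal span between peaks, those at least as long as that of Msgn1 held 35.15%, and those at least as long as that of Mesp1 and Mesp2 held 54.12%.

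**Figure D3:**
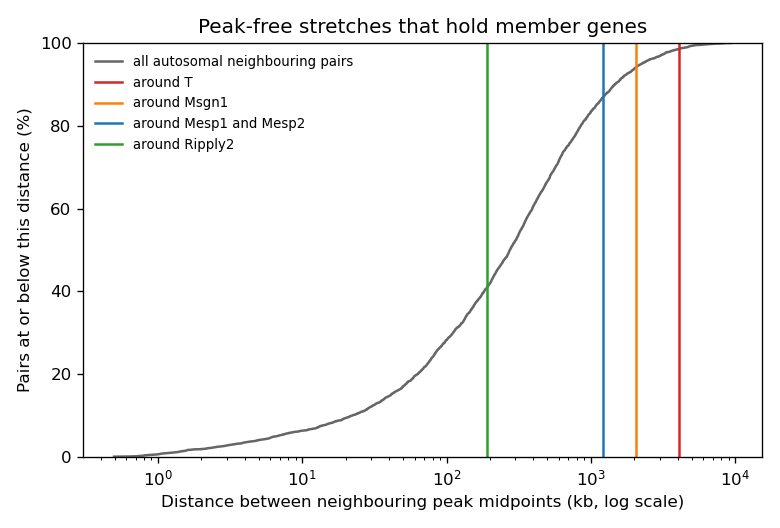
The grey curve gives the share of neighbouring autosomal peak pairs (%) at or below a distance between midpoints (kb, log scale). The vertical lines mark the stretches around Ripply2 (189.2 kb), Mesp1 and Mesp2 (1211.6 kb), Msgn1 (2043.2 kb) and T (4094.1 kb), and the last of these meets the curve near its top.

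The number of peaks at the 5 loci was close to that of the list at large. Among windows of the same length moved in 1 kb steps along the autosomes, 25.4% (Tbx6), 25.8% (T), 25.2% (Msgn1), 27.4% (Mesp1 and Mesp2) and 25.6% (Ripply2) held at least 1 peak. Summed, these shares come to 1.29 loci, against 2 with a peak. The 5 windows covered 1.045 Mb and held 1.91 peaks per Mb, where the autosomes held 1.71. Counts of 0 to 2 in 5 windows cannot show a difference from the list, so the presence of a peak near Tbx6 or Ripply2, and its absence near the other genes, is by itself no result. Of the 5 loci, only that of Tbx6 had a peak whose midpoint lay inside the stated gene position, near its end. This peak was the higher of the 2.

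Counts in wider windows, chosen after seeing the data, ranged from 0 to 7 and were not tested. Within 1000 kb on either side, Tbx6 had 7 peaks, 4 of them with scores of 100 or more, Ripply2 had 4, Mesp1 and Mesp2 had 3, Msgn1 had 1 and T had none, where such windows held 3.36 to 3.39 peaks on average. At least 1 peak was held by 85.0% to 85.2% of such windows, so windows without a peak, like that of T, are not rare. In all, 15 peaks lay in these 5 windows, against a mean of 16.8 for 5 windows of the list.

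Of the 6 promoters 5 held E-boxes, a motif that most promoters hold. By the distances above no listed peak lay at any of the 6. The share of all promoters with a peak was not computed, so that absence is by itself no result. All 6 genes matched the RefSeq promoter table (250 bases before to 50 after the start, GRCm38.p6). The Tbx6 promoter, printed above, held no CANNTG, and the other 5 held 1 to 3, where 72.3% of 32851 promoters held at least 1 and the median was 1. T held 3, CAGCTG at −249, CAAGTG at −112 and CAGGTG at −15 from the start. Mesp1 held CAACTG at −180 and CAGGTG at −126, and Mesp2 held CAGATG at −44 and CAAATG at 39. Ripply2 held CACATG at −243 and CATTTG at −148, and Msgn1 held CATTTG at −38.

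The class CAAATG, which read on the other strand is CATTTG, occurred in 3 of the 6 promoters, those of Msgn1, Mesp2 and Ripply2, and in 13.7% of all promoters. CACCTG, or CAGGTG on the other strand, occurred in those of T and Mesp1 and in 20.2% of all. Both classes were picked from 10 because they were the most frequent among the 6 promoters. Their shares were not tested. The E-boxes are matches of letters on either strand in a window of 300 bases. They are not binding sites. At Tbx6 and Ripply2 they say nothing about the sequence under the peaks, which lie outside the promoter windows.

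The T-box motif AGGTGTGA, searched on both strands, occurred in the Mesp1 promoter alone among the 6, at position 6 after the start, and in 1.28% of all promoters. Its shorter form AGGTGT, which also counts where the longer one occurs, was found in the promoters of T, Mesp1 and Mesp2 and in 13.7% of all. In the promoter of T it overlaps an E-box: AGGTGT starts at −14, 1 base after the CAGGTG at −15. The stretch is printed because the 2 motifs share letters there, with AGGTGT in capitals.
T near the start: tgcagggacccAGGTGTaatctttgggc
The listed peak nearest to T was the one 1419.2 kb away.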

How the data were processed

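The 2 libraries, 1 FLAG ChIP and 1 input, were summarised by the authors in 1 deposited list of 4087 peaks. Peaks were called with MACS, per the peak names in the deposited file. CASAVA 1.4, FastQC and mm9 are named in the submitters' processing notes. For the aligner, the read filters and the MACS version, the sources used here give nothing. The score per peak is the authors' own deposited value on an unstated scale, with none below 50, so weaker signal is not listed. It was used only to rank and filter within this list. Read depth is unknown, and no interval was computed.

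Starts were read as 0-based and are printed 1-based. Gene positions on mm9 are stated to the kb and were not checked against an mm9 annotation. Positions were never converted between builds. Names, strands, gene order and promoters are from RefSeq (GRCm38.p6). Distances run from the peak midpoint to the nearer edge of the gene position. Named were the 6 genes, their peaks within 100 kb or else the nearest, and the protein-coding neighbours. The second peaks on a side, and the Gm genes near Ripply2, were named after their values were seen. Genes and lists were chosen with earlier results of these data known. Other genes of the pathway and protein identities were planned and not run, for want of mm9 positions and proteins. Counting was tested on simulated data. Calculations used Python 3.11.15, numpy 2.4.6 and pandas 2.3.3.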

Additional observations from a re-analysis of the deposited data

How the results depend on the processing

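The peak at Tbx6 was counted once, and T, Msgn1 and the Mesp pair had no peak, with windows of 50 or 200 kb, with assignment by any base, with peaks less than 1 kb apart joined and at a score of at least 100. Ripply2 had 1 peak under these settings except at 200 kb, where it had 2, and at a score of at least 100, where it had 0 and 1 locus with a peak was left. Windows of 500 and 1000 kb and gene positions 5 kb lower or higher were chosen after seeing the data. The shifts changed no count. At 500 kb Tbx6 had 4 peaks, Mesp1 and Mesp2 2 and Ripply2 2. At 1000 kb Tbx6 had 7, Msgn1 1, Mesp1 and Mesp2 3 and Ripply2 4, and 4 loci had a peak. Wider windows hold more peaks by construction. The median score of the 2 peaks was 268.1, and with the third peak that a 200 kb window adds it was 151.8. Widths and distances moved by less than 1.5 times. In the last 150 bases before the start, the E-box count was 1 for each of Mesp1, Mesp2 and Ripply2, against 2 in 300 bases. T had 2 against 3, and Msgn1 stayed at 1 and Tbx6 at 0. In this shorter stretch 5 of the 6 held at least 1, where 47.7% of all promoters did, which was not tested. No paired analysis was possible because each group has 1 library and no test was run. For the same reason no replicate could be left out, and no value separates Msgn1 binding from other differences between these 2 libraries.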
